A study of Macaca fascicularis with 16 samples.

Results

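Chemokine receptors that lymphocytes and monocytes use to leave and re-enter the blood were examined as a group of 9 genes, CCR1, CCR2, CCR6, CCR7, CX3CR1, CXCR3, CXCR4, CXCR5 and CXCR6. They were taken by symbol from 23602 gene symbols, and all 9 had counts in all 16 libraries and passed the filter on low counts. The libraries were total RNA sequencing of peripheral blood mononuclear cells, the lymphocytes, monocytes and other light cells that a density gradient keeps from blood. The donors were 4 Mauritian-origin cynomolgus macaques, LG04, LG11, LG12 and LG15, and all 4 received NKTT320, an antibody that binds iNKT cells (invariant natural killer T cells, lymphocytes with a fixed receptor for lipids) through that receptor. Each animal was bled before treatment and 30 minutes, 2 hours and 1 day afterwards, so each of the 4 groups held 1 library per animal. The labels give no genotype, age or dose. Untreated animals were not analysed here, and treatment, elapsed time and repeated bleeding cannot be told apart.

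Chemokine receptors are G protein-coupled receptors that steer white cells along gradients of small secreted proteins. CCR2 draws monocytes out of the bone marrow towards CCL2, and CCR1 serves monocytes and other myeloid cells through ligands such as CCL3 and CCL5. CX3CR1 binds fractalkine on vessel walls and marks patrolling monocytes and cytotoxic lymphocytes. CXCR4 holds many kinds of white cell in marrow and tissue that make CXCL12. CXCR5 guides B cells and follicular helper T cells into follicles, CCR7 guides naive and central memory T cells into lymph nodes, and CCR6 answers CCL20 in B cells and some T cells. CXCR3 and CXCR6 mark activated, effector and innate-like T cells, with iNKT cells among them.

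Libraries held 1417467 to 8582852 counts, and 3 counts corresponded to 0.35 to 2.12 CPM, which is counts scaled to the library total. Globin genes took 0.0253% to 48.7% of the counts. LG04 held the highest share before treatment (20.3%), at 30 minutes (38.2%) and at 2 hours (48.7%). At 1 day LG15 held the highest, with 20.8% against 13.6% in LG04. Levels below are CPM of the library total, and scaled CPM means CPM of the library size corrected by the trimmed mean of M-values (TMM), the scale of the test. TMM multiplied the library size of LG04 at 2 hours by 0.46, so a plain CPM value of that library is lower than its scaled value. The direction of a receptor within an animal differed between plain and scaled CPM in 24 of 216 cases, 11 of them in LG04 and 11 in LG15. The 1 day library of LG04 stood closer to the 1 day library of LG15 (chi-square of 8.36 per gene) than to the other libraries of LG04 (67.2 to 118). Whether it was misplaced was not tested. The fold changes and calls of receptors at 1 day are given with and without it, while values per animal and counts over gene lists include it. CD14, CD3E, MS4A1 and PTPRC, which define monocytes, T cells, B cells and leukocytes, had counts in all 16 libraries.

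Ranked per gene length by the deposited FPKM, CXCR4 was the most abundant receptor, with a mean of 290 ± 126 FPKM (SD over 16 libraries). CX3CR1 followed with 78.7 ± 68.2 FPKM and CCR7 with 55.98 ± 23.5 FPKM. CXCR4 exceeded CX3CR1 in 15 of 16 libraries, but CX3CR1 exceeded CCR7 in 6 of 16, so those neighbours do not differ beyond their spread. CCR2 had a mean of 17.9 ± 14.3 FPKM, CCR1 13.5 ± 11.3 FPKM and CXCR5 9.80 ± 5.61 FPKM. CCR1 was above CXCR5 in 9 of 16 libraries. The lowest were CCR6 with 3.81 ± 1.92 FPKM, CXCR6 with 2.90 ± 1.76 FPKM and CXCR3 with 2.76 ± 1.502 FPKM, and CXCR6 was above CXCR3 in 8 of 16. In the plot of FPKM by receptor, the scale spans CXCR4, never under 111 FPKM, down to CXCR3, never over 6.42 FPKM.

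**Figure D1:**
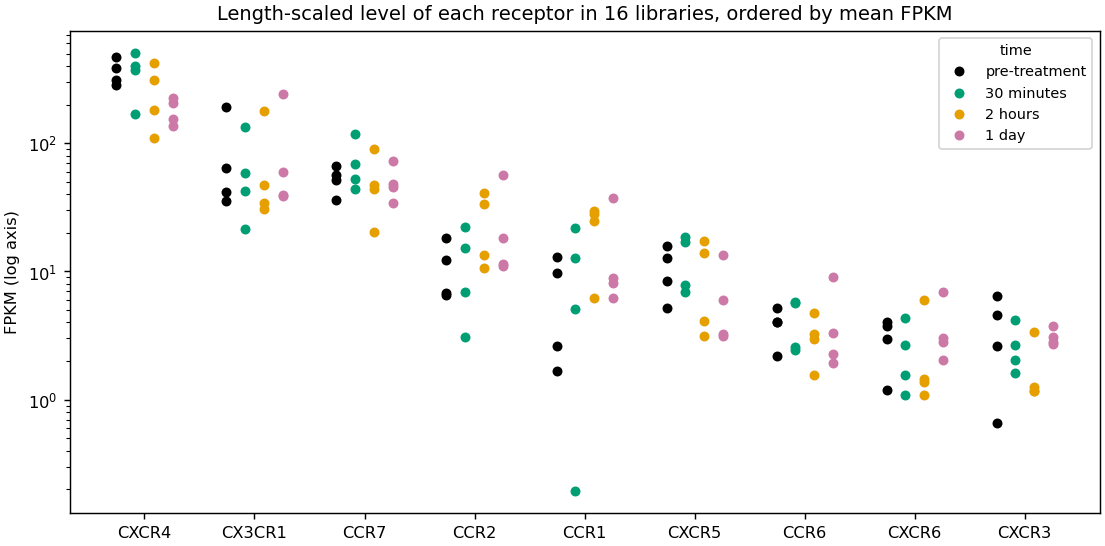
FPKM on a log axis for each receptor, ordered by mean over 16 libraries; each point is 1 library and colours mark the 4 times. CXCR4 stands above the other receptors in 15 of 16 libraries, and CX3CR1 with CCR7, and CCR6 with CXCR6 and CXCR3, overlap.

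CCR1 and CCR2, the receptors of monocytes, were higher at 2 hours than before treatment in all 4 animals. CCR1 was at 4.56 CPM in LG04, 35.5 in LG11, 6.91 in LG12 and 25.9 in LG15 before treatment. At 2 hours it was at 55.9, 75.1, 16.6 and 81.5 CPM in the same order. LG12 stayed below the pre-treatment value of LG11, so the ranges overlapped.

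At 30 minutes CCR1 was at 12.5 CPM in LG04, 60.6 in LG11, 0.51 in LG12 and 34.3 in LG15, and at 1 day at 16.8, 101, 23.3 and 23.1 CPM. The value of LG12 at 30 minutes rests on 1 count, with an exact 95% Poisson interval of 0.0129 to 2.84 CPM that covers counting error only. In edgeR's quasi-likelihood test the log2 fold change of CCR1 at 2 hours was 2.25 ± 0.61 (SE), a 4.77-fold difference, with an adjusted p of 0.32. It rests in part on LG04: without that animal it was 1.41. Against 30 minutes the 2 hour value was 1.71 ± 0.59 (edgeR adjusted p = 0.99). At 1 day against pre-treatment it was 1.38 ± 0.61 (edgeR adjusted p = 0.33), and 1.60 without the 1 day library of LG04.

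CCR2 was at 17.1 CPM in LG04, 45.3 in LG11, 16.04 in LG12 and 30.1 in LG15 before treatment. At 30 minutes it was at 15.5, 57.2, 7.65 and 37.8 CPM. At 2 hours it was at 28.1, 101, 26.6 and 82.0 CPM. LG11 and LG15 were the high animals and LG12 the low one at both of the first times, and the 2 hour range overlapped the earlier ones. At 1 day CCR2 was at 27.6 CPM in LG04, 138 in LG11, 45.2 in LG12 and 29.5 in LG15, and LG15 alone was under its pre-treatment level, on the plain scale but not on the scaled one.

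For CCR2 the log2 fold change at 2 hours was 1.33 ± 0.30, a 2.52-fold difference (edgeR adjusted p = 0.20), and at 1 day 1.22 ± 0.30, a 2.32-fold difference (edgeR adjusted p = 0.10). Without the 1 day library of LG04 the latter was 1.37 (edgeR adjusted p = 0.12). Compared with 30 minutes, CCR2 differed by 1.18 ± 0.30 at 2 hours (edgeR adjusted p = 0.84) and by 1.06 ± 0.31 at 1 day (edgeR adjusted p = 0.15), the latter 1.22 without that library (edgeR adjusted p = 0.28). DESeq2, the second tool applied to the same counts, called CCR1 at 2 hours (adjusted p = 0.035) and CCR2 at 2 hours (adjusted p = 0.0068), at 1 day (adjusted p = 0.0072) and at 1 day against 30 minutes (adjusted p = 0.023). On the scaled values CCR1 and CCR2 were higher in 4 of 4 animals at 2 hours, as were 8.06% of all genes tested, and again at 1 day, as were 9.83%. The same 2 receptors were higher at 2 hours than at 30 minutes in 4 of 4 animals (background 8.54%) and at 1 day than at 30 minutes (background 7.73%).

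CX3CR1, the third receptor of monocytes, differed more between animals than between times. It was at 115 CPM in LG04, 601 in LG11, 130 in LG12 and 200 in LG15 before treatment, and at 123, 427, 66.3 and 184 CPM at 30 minutes. At 2 hours the values were 126, 557, 94.5 and 110 CPM, and at 1 day 126, 759, 183 and 129 CPM. LG11 was the highest animal at every time. Differences between animals took 84.0% of the variance of its log2 of scaled CPM plus 1, and differences between times 3.0%. For CXCR4 the shares were 14.4% and 67.3%, for CCR2 52.7% and 34.0%, and for CCR1 48.1% and 27.9%. None of its comparisons had an unadjusted p under 0.05 in edgeR.

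CXCR4, the receptor for CXCL12, was lower at 1 day than before treatment in all 4 animals. Before treatment it was at 478 CPM in LG04, 514 in LG11, 764 in LG12 and 615 in LG15. At 1 day it was at 253, 329, 363 and 234 CPM, and the ranges did not overlap on either scale. Between these times it was at 250, 624, 815 and 641 CPM at 30 minutes and at 151, 508, 678 and 301 CPM at 2 hours. LG04 and LG15 were the low animals at 2 hours, and LG11 and LG12 still stood near their pre-treatment level.

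On the scaled values CXCR4 averaged 524 ± 68 CPM (SD, n = 4) before treatment, 547 ± 115 at 30 minutes, 399 ± 116 at 2 hours and 297 ± 7.12 at 1 day. The 4 animals at 1 day lay between 291 and 307 scaled CPM, a narrower range than at any other time. The log2 fold change at 1 day was -0.81 ± 0.17, a level 1.75-fold lower, with an edgeR adjusted p of 0.076 against 0.0047 in DESeq2. It was -0.91 without the 1 day library of LG04 (edgeR adjusted p = 0.099). Against 30 minutes the 1 day value was -0.85 ± 0.17 (edgeR adjusted p = 0.084, DESeq2 adjusted p = 0.0045), and -0.95 without that library (edgeR adjusted p = 0.17). Smaller values were found at 2 hours against pre-treatment (-0.42 ± 0.17, edgeR adjusted p = 0.63), at 2 hours against 30 minutes (-0.46 ± 0.17, edgeR adjusted p = 0.99) and at 1 day against 2 hours (-0.39 ± 0.17, edgeR adjusted p = 0.38). The first was -0.25 without LG15, and the last was -0.19 without LG12 and -0.49 without the 1 day library of LG04.

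Ranges of scaled CXCR4 at 1 day lay wholly under those before treatment, as for 2.07% of all genes tested, and under those at 30 minutes, as for 1.35%. Scaled CXCR4 was lower in 4 of 4 animals at 1 day than before treatment (background 9.09%) and than at 30 minutes (background 7.77%), and lower at 2 hours than at 30 minutes (background 8.06%). On plain CPM the 1 day and 30 minute ranges overlapped, because LG04 was at 250 CPM at 30 minutes.

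**Figure D2:**
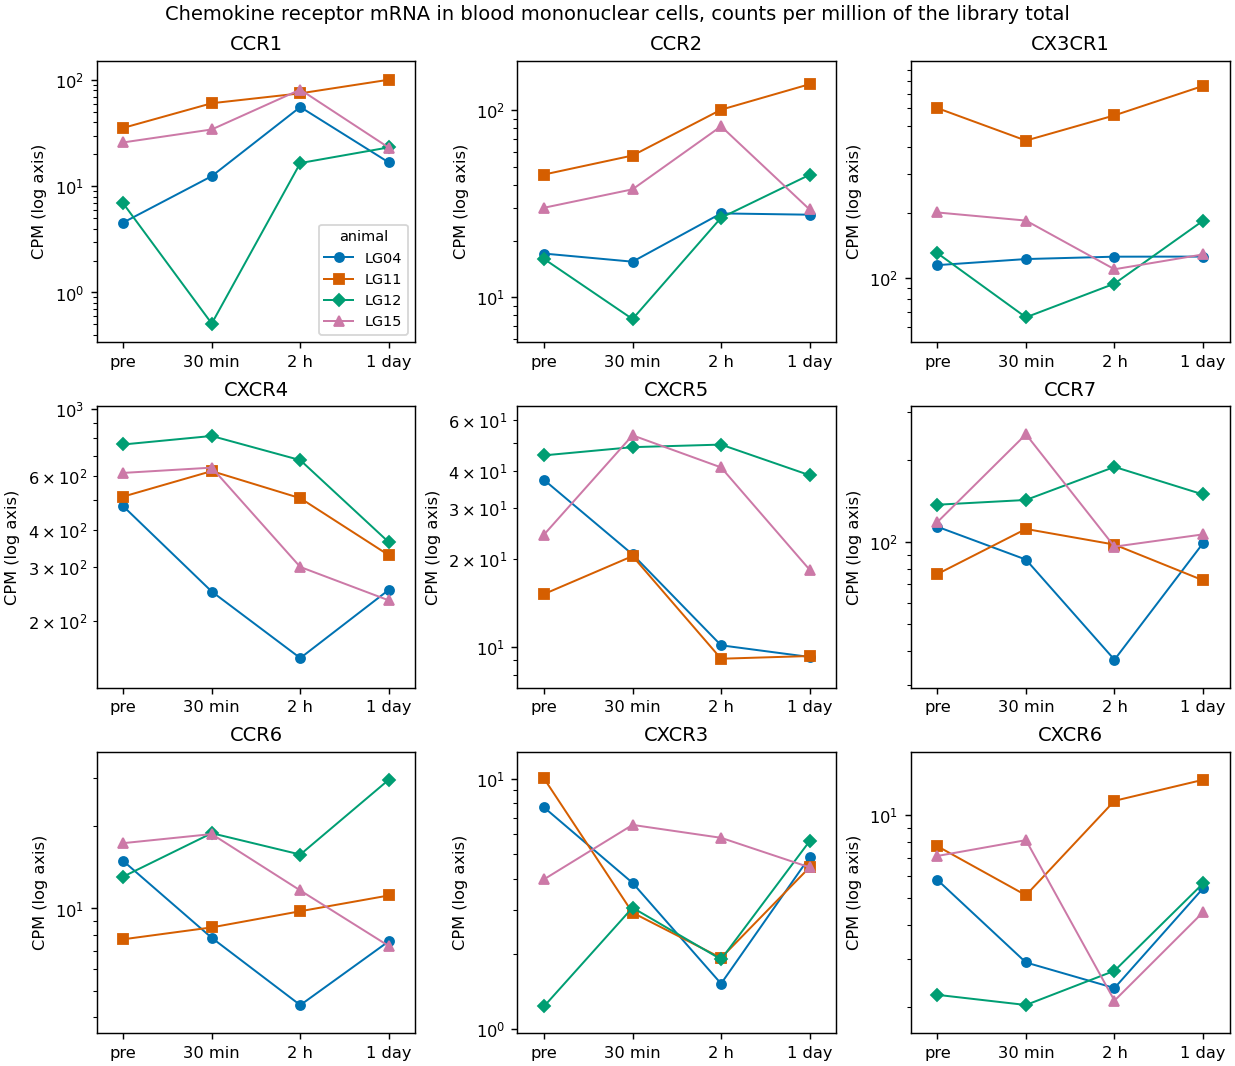
CPM of the library total on a log axis for 9 receptors at 4 times; each line joins the 4 libraries of 1 animal. CCR1 and CCR2 are higher at 2 hours than before treatment in all 4 animals, CXCR4 at 1 day is under its pre-treatment level in all 4, and CX3CR1 is set apart by LG11.

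CXCR5, the follicle-homing receptor, was at 37.4 CPM in LG04, 15.1 in LG11, 45.4 in LG12 and 24.2 in LG15 before treatment. At 1 day it was at 9.21, 9.28, 38.8 and 18.4 CPM, lower in all 4 animals on this scale but in 3 of 4 on the scaled one, where LG15 was at 21.5 and then 22.9. Values at 30 minutes were 20.7, 20.5, 48.5 and 53.2 CPM, and at 2 hours 10.1, 9.08, 49.4 and 41.3 CPM. LG12 was the only animal at or above 38.8 CPM at all 4 times, and ranges overlapped at all times.

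The log2 fold change of CXCR5 at 1 day was -0.63 ± 0.29 against pre-treatment (edgeR adjusted p = 0.36) and -0.96 ± 0.29 against 30 minutes (edgeR adjusted p = 0.16, DESeq2 adjusted p = 0.065). The first of these rests on LG04: it was -0.27 without that animal and -0.43 without its 1 day library. The second was -0.78 without that library (edgeR adjusted p = 0.39).

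CCR7, which brings naive T cells into lymph nodes, was at 114 CPM in LG04, 76.4 in LG11, 137 in LG12 and 119 in LG15 before treatment, and at 86.3, 112, 143 and 249 CPM at 30 minutes. LG15 at 30 minutes was the highest of the 16 libraries. On the scaled values CCR7 was higher at 30 minutes in 4 of 4 animals, as were 6.21% of all genes tested, with a log2 fold change of 0.51 ± 0.21 and an edgeR adjusted p of 1.0. It was 0.33 without LG15. On plain CPM LG04 was lower, so the direction was shared by 3 of 4 animals. At 2 hours CCR7 was at 37.1, 98.0, 189 and 96.3 CPM and at 1 day at 99.1, 72.5, 150 and 107 CPM, with 2 of 4 animals above their pre-treatment level at each of these times on the scaled values.

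CCR6, the receptor for CCL20, was at 14.9 CPM in LG04, 7.71 in LG11, 13.1 in LG12 and 17.3 in LG15 before treatment. At 1 day it was at 7.58, 11.2, 29.6 and 7.29 CPM, and LG12 held the highest value of the 16 libraries. Over all 16 libraries it ranged from 4.43 to 29.6 CPM. None of its comparisons had an unadjusted p under 0.05 in edgeR.

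CXCR3 and CXCR6, the receptors of effector and innate-like T cells, were the least abundant, and small counts limit what can be said of them. CXCR3 had 5 to 73 counts per library and ranged from 1.23 to 10.1 CPM. Its mean was 5.74 ± 3.91 CPM before treatment (SD, n = 4), 4.09 ± 1.69 at 30 minutes, 2.79 ± 2.03 at 2 hours and 4.85 ± 0.57 at 1 day. The lowest value was LG12 before treatment, with 5 counts. At 2 hours CXCR3 was higher than before treatment in 2 animals and lower in 2.

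CXCR6 had 4 to 100 counts per library and ranged from 2.04 to 13.4 CPM. Its means were 5.71 ± 2.46 CPM before treatment, 4.55 ± 2.71 at 30 minutes, 4.62 ± 4.45 at 2 hours and 7.24 ± 4.17 at 1 day. LG11 was highest at 2 hours with 11.3 CPM and at 1 day with 13.4 CPM, and LG12 was lowest before treatment and at 30 minutes. No comparison of CXCR3 or CXCR6 had an unadjusted p under 0.05 in edgeR.

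Across the receptors, edgeR called 0 of 9 in each of the 6 comparisons at an adjusted p under 0.05. At 30 minutes against pre-treatment, 1 of 9 had an unadjusted p under 0.05, where 2.53% of 11545 genes did and 0.0% passed after adjustment. At 2 hours 3 of 9 had one, against a background of 7.43% (0.0% after adjustment), and at 1 day 4 of 9, against 13.6% (0.225% after adjustment). At 2 hours against 30 minutes 3 of 9 had one (background 4.6%, and 0.0% after adjustment). For 1 day against 2 hours it was 1 of 9 (12.6%, and 0.104%), and for 1 day against 30 minutes 3 of 9 (13.1%, and 0.0433%). The 9 receptors were chosen with earlier results of these data known, and they share libraries and cell makeup. These shares, and those of the tests below, describe the 9 receptors and do not test them as a group.

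In 1 test of whether the 4 times differed at all, edgeR called 0 of 9 receptors and 0.104% of all genes. 4 of 9 receptors had an unadjusted p under 0.05 in that test, and 12.2% of all genes did. CCR2 had an adjusted p of 0.11, CXCR4 of 0.12 and CCR1 of 0.23 in edgeR. DESeq2 called all 3 of them (adjusted p of 2.2e-04, 0.0029 and 0.034), in a test that called 3.84% of all genes.

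DESeq2 called 2 of 9 receptors at 2 hours, CCR1 and CCR2, and 0.684% of all genes. It called 2 at 1 day, CCR2 and CXCR4, and 3.46% of all genes, and the same 2 at 1 day against 30 minutes with 2.99% of all genes. It called 0 of 9 at 30 minutes (background 0.121%), at 2 hours against 30 minutes (0.026%) and at 1 day against 2 hours (1.05%). CCR1, CCR2 and CXCR4 were thus past the threshold by one tool and not by the other. Without the 1 day library of LG04, DESeq2 called the same receptors at 2 hours, at 1 day and at 1 day against 30 minutes (adjusted p of 0.0033 to 0.036), and CCR2 also at 2 hours against 30 minutes (DESeq2 adjusted p = 0.038). DESeq2 gave CXCR3 and CXCR6 no adjusted p at 30 minutes and at 1 day against 2 hours. The 8 receptors without a small p at 30 minutes had log2 fold changes of -0.32 to 0.55, the 6 at 2 hours -0.92 to 0.06 and the 5 at 1 day -0.05 to 0.50.

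**Figure D3:**
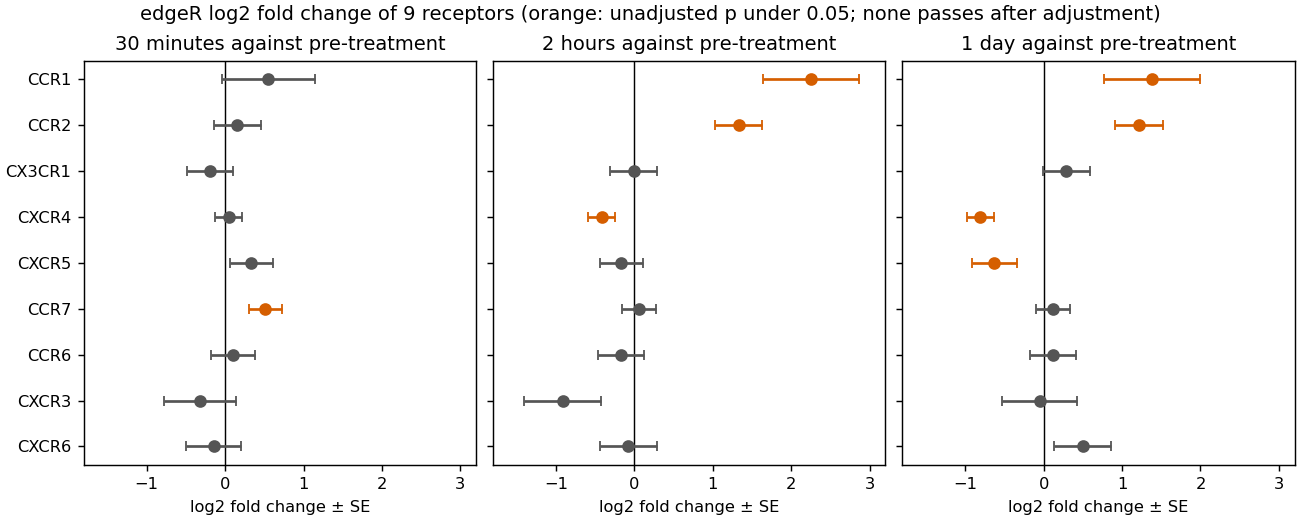
Log2 fold change of each receptor against pre-treatment at 3 times from edgeR, with bars of 1 SE; orange marks an unadjusted p under 0.05, and no value passes after adjustment. CCR1 and CCR2 lie right of 0 at 2 hours and 1 day, and CXCR4 lies left of 0, farther at 1 day.

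In bulk RNA of mixed cells, fewer cells of a type and less RNA per cell cannot be told apart, so the levels of cell markers are given beside the receptors. At 2 hours all 17 monocyte markers were higher than before treatment (median log2 fold change 1.00) and all 16 T cell markers lower (median -0.36), though edgeR called 0 of either list. The summed monocyte markers ranged from 1124 to 4687 scaled CPM before treatment, 823 to 6678 at 30 minutes, 2127 to 8168 at 2 hours and 2237 to 11260 at 1 day. LG11 had the highest sum at each time and LG12 at 30 minutes the lowest, as for CCR2. The median of the monocyte list was 0.34 at 30 minutes and 0.29 at 1 day, and the median of all genes tested was 0.02, 0.02 and 0.00 at the 3 times.

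Set against the monocyte markers of the same library, CCR2 had 6.05 counts per 1000 marker counts in LG04, 8.24 in LG11, 11.2 in LG12 and 8.55 in LG15 before treatment. At 30 minutes it had 5.18, 7.86, 7.75 and 7.42, lower than before treatment in all 4 animals. At 2 hours it had 7.55, 10.8, 9.97 and 10.2, with LG12 under its pre-treatment ratio. At 1 day it had 15.0, 10.9, 15.3 and 16.2. This ratio was higher at 1 day than before treatment in all 4 animals, with LG11 at 1 day just under LG12 before treatment. CCR1 had 1.61, 6.46, 4.84 and 7.37 counts per 1000 before treatment in the same order of animals, and 4.17, 8.32, 0.517 and 6.74 at 30 minutes. It had 15.0, 8.06, 6.21 and 10.2 at 2 hours and 9.11, 7.98, 7.90 and 12.7 at 1 day. The lowest CCR1 ratio at 1 day, 7.90, was just above the highest before treatment, 7.37. LG04 and LG12 rest on 29 and 28 CCR1 counts before treatment and on 31 and 33 at 1 day. The share of all genes whose ratios separate in this way was not computed. CX3CR1 per 1000 monocyte-marker counts ranged from 40.6 to 109 before treatment, from 13.7 to 59.7 at 2 hours and from 59.9 to 70.7 at 1 day.

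CXCR4 is made by most leukocytes, and it was set against PTPRC, which encodes the pan-leukocyte protein CD45. It had 314 counts per 1000 PTPRC counts in LG04, 242 in LG11, 344 in LG12 and 251 in LG15 before treatment, and 191, 140, 182 and 188 at 1 day. The highest ratio at 1 day, 191, was under the lowest before treatment, 242. For this ratio too, the share of all genes that separate was not computed. At 2 hours the ratio was 210, 226, 328 and 215, with LG12 still near its pre-treatment level. Per 1000 T cell marker counts, CXCR4 stood at 218 to 256 before treatment, 155 to 282 at 2 hours and 123 to 206 at 1 day. At 2 hours LG11 was above its pre-treatment ratio on this measure, LG04 and LG12 were near theirs and LG15 was lower. These ratios do not depend on library size or on globin.

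**Figure D4:**
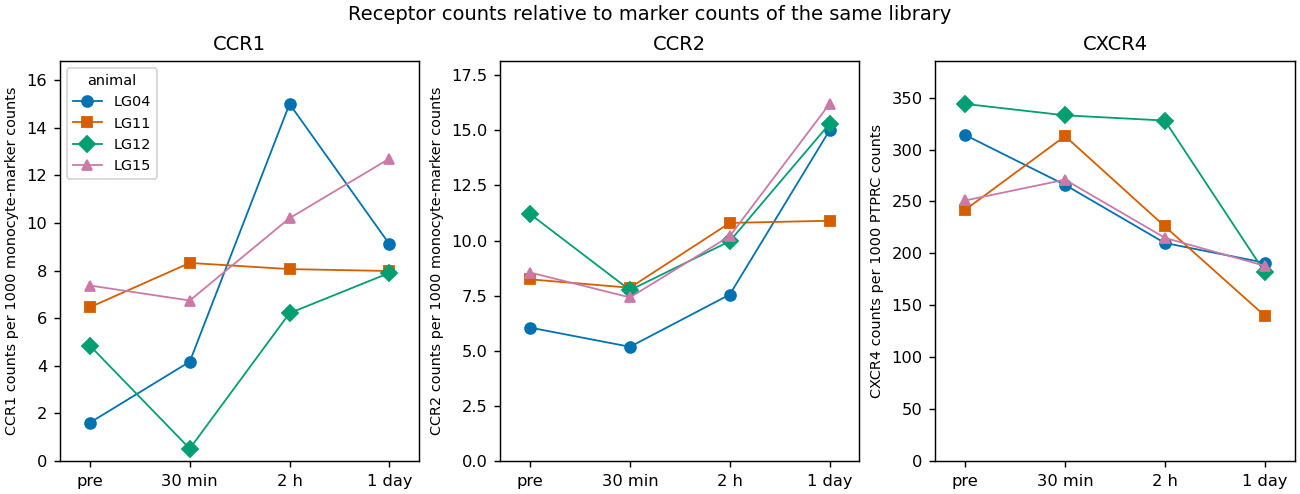
Counts of CCR1 and CCR2 per 1000 monocyte-marker counts and of CXCR4 per 1000 PTPRC counts, each axis starting at 0, with 1 line per animal. The CXCR4 ratio is lower at 1 day than before treatment in all 4 animals, and the CCR1 and CCR2 ratios are higher.

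Other cell lists also differed between times, none with a member called by edgeR. B cell markers had a median log2 fold change of 0.36 at 30 minutes, -0.42 at 2 hours and 0.05 at 1 day. CXCR5 per 1000 B cell marker counts was 38.0 to 76.3 before treatment and 25.4 to 61.8 at 1 day, lower in 3 of 4 animals. CCR7 per 1000 counts of naive and central memory T cell markers was 51.6 to 84.8 before treatment and 48.9 to 104 at 30 minutes. Natural killer cell markers, to which CX3CR1 is linked, were lower at 30 minutes in 12 of 12 tested (median -0.83), and CX3CR1 was at -0.19. Platelet markers had a median of 2.74 at 1 day, with a summed level of 132 to 9852 scaled CPM before treatment and 799 to 32520 at 1 day. Neutrophil markers had a median of 0.67, 0.45 and -0.98 at the 3 times. CLEC4C, a defining gene of plasmacytoid dendritic cells, was at 0 in 6 of 16 libraries. The part of these cells in the receptor values was not tested.

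Of 22 ligands of these receptors 6 passed the filter on low counts. None was called by edgeR in any comparison. At 30 minutes 5 of 6 were lower (median -0.57). CCL4, an inflammatory chemokine, stood at -0.98 ± 0.25 and the CCR1 ligand CCL5 at -0.67 ± 0.22 (edgeR adjusted p = 1.0 for both), and CCL5 at 1 day against 30 minutes at 0.69 ± 0.22 (edgeR adjusted p = 0.19). These 2 genes were singled out at those times after their values were seen. The smallest p-values at 2 hours belonged to CCL4 (log2 fold change -0.52 ± 0.25, edgeR adjusted p = 0.68), to CXCL10, a CXCR3 ligand (0.57 ± 0.31, 0.71), and to MIF, which binds CXCR4 (-1.05 ± 0.80, 0.80). At 1 day they were MIF (-1.54 ± 0.86, edgeR adjusted p = 0.50), CCL4 (-0.37 ± 0.26, 0.63) and the CCR1 ligand CCL3 (-0.66 ± 0.57, 0.72).

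Of 17 other chemoattractant receptors 10 were tested, and edgeR called none. At 2 hours 7 of 10 were higher, with a median of 0.44, and at 1 day 9 of 10, with a median of 0.58. FPR1, the formyl peptide receptor of myeloid cells, had the smallest p at 2 hours (2.80 ± 0.65, edgeR adjusted p = 0.21, DESeq2 adjusted p = 0.0093). The complement receptor C5AR1 (1.23 ± 0.42, edgeR adjusted p = 0.51) and the neutrophil receptor CXCR2 (0.85 ± 0.30, 0.52) came next. At 1 day the smallest belonged to CCR9, a gut-homing receptor (1.17 ± 0.32, edgeR adjusted p = 0.12, DESeq2 adjusted p = 0.024), to the chemerin receptor CMKLR1 (2.02 ± 0.55, edgeR adjusted p = 0.12) and to FPR1 (2.19 ± 0.68, 0.16).

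Among 34 genes of receptor signalling and turnover, all tested, edgeR called 1, the G protein regulator RGS1, which fell at 1 day, where 0.225% of all genes were called. RGS1 shortens signals of chemokine receptors by speeding the G protein back to rest. It was at 195 scaled CPM in LG04, 183 in LG11, 251 in LG12 and 206 in LG15 before treatment, and at 65.7, 62.7, 65.0 and 75.1 at 1 day. The ranges did not overlap, as for 2.07% of all genes tested in this direction. The log2 fold change was -1.61 ± 0.23 (edgeR adjusted p = 0.015, DESeq2 adjusted p = 1.3e-06). The call was lost without LG04 (edgeR adjusted p = 0.13), without LG11 (0.13) and without LG12 (0.16), with values of -1.64, -1.58 and -1.49. Without the 1 day library of LG04 it was kept, at -1.73 (edgeR adjusted p = 0.039).

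The other signalling genes with the smallest p were ADRBK2, a receptor kinase (0.63 ± 0.24, edgeR adjusted p = 0.59), and RGS2 (0.54 ± 0.25, 0.67) at 2 hours. At 2 hours RGS1 itself stood at -0.87 ± 0.23 (edgeR adjusted p = 0.29). At 1 day RGS18, which platelets make in quantity, stood at 2.66 ± 0.80 (edgeR adjusted p = 0.15, DESeq2 adjusted p = 0.029) and RGS3 at -0.80 ± 0.27 (edgeR adjusted p = 0.19). The median of the signalling list was 0.06 at 2 hours and -0.06 at 1 day.

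Over the 16 libraries, with each animal centred on its own mean, CCR1 and CCR2 had a Pearson r of 0.86 on the log2 of plain CPM plus 1 and 0.91 on the scaled values. CCR2 and CXCR4 had an r of -0.56 and -0.80. These values describe 16 libraries of 4 animals that share depth and cell makeup. On plain CPM the genes most like CCR1 were MSR1, VCAN and CD163 (r of 0.97, 0.96 and 0.93). For CCR2 they were TRPM6, NRG1 and BAI3 (0.94, 0.93 and 0.93), and for CXCR4 ZBTB10, ZXDB and MOAP1 (0.97, 0.96 and 0.96). On the scaled values RGS1 was the gene most like CXCR4, with an r of 0.97.

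On the same plain scale CX3CR1 was most like TUBA1B, NDUFA8 and SNORA52 (0.94, 0.92 and 0.82), and CCR7 most like CA6, BEND5 and OSBPL10 (0.93, 0.92 and 0.91). CXCR5 was most like USP20, C20orf11 and CASZ1 (0.91, 0.91 and 0.91), CCR6 like ZNF197, SMC6 and IFNAR1 (0.97, 0.93 and 0.91). For CXCR3 the closest were ZFP64, RABAC1 and NUP62 (0.94, 0.86 and 0.85), and for CXCR6 C2orf44, ITGAV and ZNF34 (0.92, 0.90 and 0.88). These ranks depend on the scale. On the scaled values the closest to CXCR3 were CCM2, AHDC1 and TCOF1 (0.84, 0.82 and 0.81), the first for CXCR5 was CD248 (0.90) and the first for CCR7 was IL2RA (0.83).

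In the macaque RefSeq annotation (T2T-MFA8v1.1), CCR1, CCR2, CX3CR1 and CXCR6 lie on chromosome 2, and CCR1, CCR2 and CXCR6 lie in 1 cluster with CCR3 and XCR1. CXCR4 is on chromosome 12, CXCR5 on 14, CCR7 on 16, CCR6 on 4 and CXCR3 on X. In 3 places a receptor overlaps another gene: CCR1 overlaps CCR3, CXCR5 overlaps BCL9L and CXCR6 overlaps FYCO1. Means at the 4 times were 97.2 to 104 CPM for FYCO1 beside 4.55 to 7.24 for CXCR6. They were 78.7 to 122 CPM for BCL9L beside 18.9 to 35.7 for CXCR5, and 2.93 to 6.33 for CCR3 beside 18.2 to 57.3 for CCR1. The part of shared reads in the receptor counts was not tested. No source used here says whether counting used strand, and reads of overlapping genes are uncertain. The counts were made on human gene models, and an overlap in the macaque annotation does not show which of those models shared reads. How reads that fit more than 1 gene were counted is not given either.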

How the data were processed

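Total RNA of unfractionated peripheral blood mononuclear cells from 4 animals at 4 times was sequenced with single reads of 75 cycles after ribosomal RNA removal, per the labels' protocols. The authors deposited whole-number counts per gene, not normalized. Per the submitters' processing notes, the tools were HTSeq, STAR, Trimmomatic, FastQC, edgeR and DESeq, and the builds hg19 and GRCh37, all without versions. Gene identifiers are human, so reads of the macaque were assigned to human genes, and a gene that differs between the species can be undercounted. The authors also deposited FPKM, used here only to rank receptors per gene length, by a program that no source used here names.

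Per-animal tables gave the counts, with entries of 1 symbol summed. Of 24 columns in the series-wide count tables, 23 matched the library in their name, while the 2 hour column of LG04 held its 1 day values. The smallest chi-square per gene over 120 pairs of libraries was 4.14, so no pair was treated as 1 library.

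All 16 libraries were fitted together in edgeR 4.0.16 (R 4.3.3) with TMM, filterByExpr (11545 genes), terms for animal and time, 9 residual degrees of freedom and the quasi-likelihood F test. P-values were adjusted over all genes by Benjamini and Hochberg, with a threshold of 0.05. SE values are the size of the log2 fold change divided by the square root of the F statistic of that test. Pairing by animal comes from the design, with each animal bled at all 4 times. Deviations from the time means correlated within an animal with a median of 0.56 over 24 pairs (lowest 0.055). Each time has 1 library per animal, so the error includes technical spread.

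On simulated data at 2 hours against pre-treatment (11545 genes), the fit recovered 52 of 100 genes changed by log2 1 and 90 of 100 changed by log2 2, with 8 false calls. The simulation gave all animals the same gene means, without differences in cell makeup or globin, and changed only genes above a low level. Its recovery and false calls check the fit and need not hold for the real libraries. Alternatives were DESeq2 1.42.0, upper-quartile scaling, globin genes left out, no filter, no animal block, only the 2 times compared, each animal left out, and libraries left out. DESeq2 without the 1 day library of LG04 was added after seeing the data. The receptors and gene lists were chosen with earlier results of these data known. Log2 fold changes with SE are printed for receptors with an unadjusted p under 0.05, the other receptors by range, and pathway genes by their threshold or the 3 smallest p, with the 2 exceptions named as such. Sequences are not shown. Intervals and floors cover counting error only, as copies of 1 molecule cannot be recognised without molecular identifiers.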

Additional observations from a re-analysis of the deposited data

Results flagged for a closer look

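The highest or lowest of 4 libraries was set against the other 3 by Dixon's ratio of gap to range (95% critical value). On plain CPM it lay far from them in 7 of 36 sets (9 receptors at 4 times), and in all 7 it was the highest. Chance gives about 1 in 20 if values are normally distributed, which was not tested, and receptors of the same library are not independent. LG11 held 6 of these 7. At 1 day it had 101 CPM of CCR1, where the others had 16.8 to 23.3, and 138 CPM of CCR2, where they had 27.6 to 45.2. CX3CR1 was at 557 CPM in LG11 at 2 hours (others 94.5 to 126) and at 759 CPM at 1 day (others 126 to 183). CXCR6 was at 11.3 CPM in LG11 at 2 hours (others 2.12 to 2.72) and at 13.4 CPM at 1 day (others 4.44 to 5.64). The seventh was CXCR3 in LG15 at 2 hours, at 5.82 CPM on 11 counts (others 1.52 to 1.93). On scaled CPM 3 of these 7 stayed past the critical value, namely CCR1, CCR2 and CX3CR1 in LG11 at 1 day. The other 4 did not, with ratios of 0.52 for CX3CR1 and 0.60 for CXCR6 in LG11 at 2 hours, 0.74 for CXCR6 in LG11 at 1 day and 0.55 for CXCR3 in LG15. Over all 36 sets, 6 were past the critical value on scaled CPM. Some sets, not named here, were thus past it on that scale only.

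Summed monocyte markers were at 11260 scaled CPM in LG11 at 1 day and 2237 to 2425 in the other animals. The part of monocyte number in the CCR1, CCR2 and CX3CR1 values of LG11 was not tested. Without LG11 the log2 fold change of CCR2 at 1 day was 1.05 and that of CCR1 1.32.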

How the results depend on the processing

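No named log2 fold change of a receptor reversed: of 195 alternative values for 15 results, 182 kept their side of the threshold, and 13, all from DESeq2 with or without the 1 day library of LG04, passed it. These 15 were chosen by an unadjusted p under 0.05 in edgeR, and none was past the threshold there. The alternatives reuse the same libraries, so keeping direction and side was likely in advance and says little about stability. DESeq2 called 2 receptors at 2 hours, 2 at 1 day, 2 at 1 day against 30 minutes and 3 at any time, where edgeR called 0. Without that library DESeq2 called 2, 2, 2 and 3, and 1 at 2 hours against 30 minutes. Without a filter on low counts edgeR called 1 at any time, CCR2. Leaving out any 1 animal left 0 receptors called in each comparison. Without the replicate block (animal as a term), 0 receptors were called, and CXCR4 at 1 day was -0.82 (edgeR adjusted p = 0.42). An exact Friedman test of the 4 times gave a lowest p of 0.052, for CXCR4. Its smallest possible p is 7.2e-05, which for 1 gene alone adjusts to 0.84 over 11545 genes, so its 0 of 9 calls say nothing about stability. Over the alternatives the edgeR or DESeq2 adjusted p of CXCR4 at 1 day ranged from 0.0033 to 0.42, and that of CCR2 from 0.0057 to 0.82.

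Pathway calls, counted once per gene and comparison, were 1 in edgeR, 6 with DESeq2 (4 without the 1 day library of LG04), 2 with no filter and 0 without the replicate block, with only the 2 times compared or without the 4 shallowest libraries. They ranged from 0 to 1 with 1 animal left out. Without that library DESeq2 called FPR1 and RGS1, and no longer CCR9 or RGS18. Over all genes, calls at 1 day against pre-treatment were 26 in edgeR (6 higher, 20 lower), 400 with DESeq2 (290 higher, 110 lower; 176 without that library), 70 with no filter (34 higher, 36 lower), 3 without the block, 1 with only the 2 times, 0 without the 4 shallowest libraries and 1 to 67 with 1 animal left out. For CXCR3 and CXCR6, counts as low as 5 and 4 in a library limit detection. The cause of the difference between the tools was not tested.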
